A study of Mus musculus with 6 samples.

Results

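Proteasome subunits and their dedicated activators, inhibitor and assembly chaperones were followed in muscle stem cells of young and old mice. Genes were taken by symbol alone (Psma, Psmb, Psmc, Psmd or Psme with a number, Psmg with a digit, and Psmf1), which gave 46 of the 12067 lines of the deposited expression table. Of these, 5 are the interferon-induced members (Psmb8, Psmb9, Psmb10, Psme1 and Psme2) and are described apart from the other 41. Psma8 and Psmb11, the subunits known from testis and thymus, were not analysed here. All 46 passed the minimum used for testing, which is at least 1 RPKM (a read count scaled by exon length and library size) in 2 of the 6 libraries.

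The cells were quiescent skeletal muscle stem cells of C57BL/6 male mice, with no other genotype or treatment named. They had been sorted from limb muscle as CD45-, CD31-, Sca1- and VCAM+ cells, stained with 5 uM ThiolTracker Violet, a dye that reports glutathione (GSH), and sorted again. The old GSH-low and old GSH-high groups are the dim and bright fractions from mice aged 23 months, with 2 libraries each and 2 animals pooled in each library. The young group is the whole stained population of mice aged 4 months, nearly all of it GSH-high, with 2 libraries of 1 animal each. Whether an old GSH-low and an old GSH-high library came from the same animals is not stated in the labels. Young and old libraries therefore differ in age and in pooling, and the young group was not split by GSH.

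The proteasome is the cell's main machine for degrading ubiquitin-tagged proteins. A barrel-shaped core made of alpha and beta rings holds the cutting sites inside, and a regulatory cap recognises ubiquitin, unfolds the substrate with a ring of ATPases and feeds it in. Interferon replaces the catalytic beta subunits Psmb5, Psmb6 and Psmb7 by Psmb8, Psmb9 and Psmb10 in newly built cores, giving the immunoproteasome, whose products suit presentation by MHC class I molecules. Psme1 and Psme2 form an alternative, ATP-independent activator of the core. Proteasome function is required for muscle stem cells to persist in mice.

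Reads assigned to the deposited genes came to 50708747 and 46997444 in the old GSH-low libraries, 68791509 and 60760753 in the old GSH-high libraries, and 63114484 and 60052694 in the young libraries, and every member had at least 192 reads in every library. All 10 muscle stem cell markers were present in all 6 libraries. Pax7, which defines these cells, stood at 11.2 and 12.6 RPKM in old GSH-low cells, 8.09 and 8.65 RPKM in old GSH-high cells, and 7.93 and 7.64 RPKM in young cells. It was the only one of the 10 that rose in old GSH-low against young cells, where 5 fell (Calcr, Chrdl2, Des, Itga7 and Sdc4), and 3 fell in old GSH-high against young cells (Calcr, Chrdl2 and Des). Of all genes tested, 18.1% rose and 18.7% fell in old GSH-low cells, and 15.1% rose and 13.7% fell in old GSH-high cells, against young cells. These shares also apply to the marker counts below. Calcr, a marker of quiescence, stood at 22.9 and 19.8 RPKM in old GSH-low cells, 18.1 and 20.3 RPKM in old GSH-high cells, and 40.2 and 46.6 RPKM in young cells. Markers of other cells differed between the groups. The summed RPKM of 10 tendon markers was 3069 and 2679 in old GSH-low cells, 813 and 642 in old GSH-high cells, and 38.5 and 36.2 in young cells. Of 10 lymphocyte markers 7 had a line, with sums of 26.4 and 23.7 in old GSH-low cells, 2.39 and 3.75 in old GSH-high cells, and 1.24 and 1.25 in young cells. Ms4a1, a B cell marker, had 0 reads in all old GSH-high and young libraries (a count of 0 allows up to 3 reads). Ptprc, the gene of the CD45 protein that the sort removed, had 553 and 493 reads in old GSH-low cells, 68 and 124 in old GSH-high cells, and 3 and 3 in young cells. Of 8 antigen-presenting cell markers 5 had a line, with sums of 164 and 151 in old GSH-low cells, 21.0 and 29.8 in old GSH-high cells, and 5.53 and 4.21 in young cells. For macrophages 5 of 10 markers had a line, with sums of 34.7 and 31.7 in old GSH-low cells, 31.2 and 42.2 in old GSH-high cells, and 5.57 and 8.27 in young cells. The sum of 10 endothelial markers was 26.1 and 21.1 in old GSH-low cells, 85.7 and 87.1 in old GSH-high cells, and 39.1 and 44.0 in young cells. The sum of 10 fibro-adipogenic markers was 1750 and 1605 in old GSH-low cells, 1275 and 1237 in old GSH-high cells, and 1093 and 1199 in young cells. Of these 10, 6 rose and 2 fell in old GSH-low cells and 7 rose and 1 fell in old GSH-high cells, against young cells. The pericyte sum over 8 markers was 158 and 155 in old GSH-low cells, 137 and 159.5 in old GSH-high cells, and 186 and 195 in young cells. Of these markers 7 were tested, and 4 rose and 1 fell in old GSH-low cells and 5 rose and 1 fell in old GSH-high cells, against young cells. Of 10 myofibre markers 8 had a line, with sums of 52.5 and 53.5 in old GSH-low cells, 24.6 and 26.9 in old GSH-high cells, and 44.4 and 44.4 in young cells. Of these markers 6 were tested, and 4 rose and 1 fell in old GSH-low cells and 1 rose and 2 fell in old GSH-high cells, against young cells. In such bulk libraries, more cells of a type and more RNA per cell cannot be told apart.

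Among the interferon-induced members, the catalytic subunits Psmb8 and Psmb9 rose in both old fractions against young cells, and the other 3 did not pass the test. This made 2 of 5 members in each comparison, beside 18.1% of the 10609 genes tested that rose in old GSH-low cells and 15.1% that rose in old GSH-high cells. Both comparisons use the same young libraries and are not independent. Psmb8 supplies the chymotrypsin-like site of the immunoproteasome. It was measured at 4.81 and 4.61 RPKM in old GSH-low cells, 4.88 and 4.63 RPKM in old GSH-high cells, and 2.66 and 1.86 RPKM in young cells. All 4 old libraries lay above both young libraries, an order that 32.6% of all genes showed for old GSH-low and 32.4% for old GSH-high, and the old fractions overlapped. The mean was 4.71 ± 0.143 RPKM in old GSH-low cells and 4.75 ± 0.174 RPKM in old GSH-high cells, against 2.26 ± 0.565 RPKM in young cells (SD, n = 2 each). On the log2(RPKM + 1) scale the difference was 0.82 ± 0.12 for old GSH-low against young (SE, adjusted p = 0.00115) and 0.83 ± 0.12 for old GSH-high against young (adjusted p = 0.00139), from limma with Benjamini-Hochberg adjustment over all genes. The ratios of mean RPKM were 2.08 and 2.10.

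Psmb9, the induced counterpart of Psmb6, was measured at 2.04 and 1.83 RPKM in old GSH-low cells, 1.93 and 1.93 RPKM in old GSH-high cells, and 1.07 and 0.893 RPKM in young cells. Again the old libraries lay above the young ones with no overlap, from 322 to 488 reads in old libraries and 192 to 237 reads in young libraries. The difference was 0.57 ± 0.10 in both comparisons on the log2(RPKM + 1) scale, with an adjusted p of 0.00262 for old GSH-low and 0.00343 for old GSH-high against young. The added 1 makes differences of such low genes look smaller: the ratio of mean RPKM was 1.97 in both comparisons. Between old GSH-low and old GSH-high cells the log2 difference was -0.011 for Psmb8 (adjusted p = 0.974) and 0.0013 for Psmb9 (adjusted p = 0.997). Both calls against young cells held when any 1 of the 6 libraries was left out.

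Psmb9, the peptide transporter gene Tap1 and Psmb8 lie side by side on chromosome 17 in the MHC class II region, with Psmb9 at 34181987 to 34187764 on the minus strand and Psmb8 at 34197721 to 34201454 on the plus strand (GRCm38). Exons of Psmb9 and Tap1 overlap on opposite strands over 212 bases, 5.79% of the exon length of Psmb9, and 498 bases of Psmb8 overlap an opposite-strand gene with no line in the table. Several members described below as falling also overlap other genes. The share of exon length was 25.5% for Psmd9, 11.8% for Psmb7, 10.1% for Psmd13 and 8.25% for Psmc3 on the opposite strand. On the same strand it was 12.1% for Psmb5 and 9.68% for Psmg3. Whether the libraries keep strand is not stated, so reads in the opposite-strand stretches are uncertain. Reads in the same-strand stretches are uncertain whether or not strand was kept. The exons counted for Psmb8 add up to 3381 bases, so its level per length depends on that annotation while its ratio between libraries does not.

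The stretches directly upstream of the start sites are shown for the pairs that exchange in the core and moved in opposite directions in old GSH-low cells, Psmb8 with Psmb5 and Psmb9 with Psmb6. The windows of Psmb8 and Psmb9 lie inside the gene spans given above, since the RefSeq starts used here lie downstream of the first base that GENCODE annotates, and that of Psmb5 overlaps its GENCODE span in part. Each is the 250 bases before the RefSeq start in GRCm38.p6, read 5′ to 3′ on the gene's strand, with capitals marking matches to any of 3 motifs searched on both strands. These were an interferon-stimulated response element (GAAA, any 2 bases, GAAA), a gamma-activated site (TTCNNNGAA) and an antioxidant element core (TGACNNNGC).
Psmb8, chr17:34197945-34198194, plus strand: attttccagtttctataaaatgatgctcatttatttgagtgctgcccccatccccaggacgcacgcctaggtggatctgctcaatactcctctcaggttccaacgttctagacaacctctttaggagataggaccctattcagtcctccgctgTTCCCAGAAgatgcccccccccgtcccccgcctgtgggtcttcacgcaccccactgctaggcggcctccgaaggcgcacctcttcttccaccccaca
Psmb9, chr17:34187331-34187580, minus strand: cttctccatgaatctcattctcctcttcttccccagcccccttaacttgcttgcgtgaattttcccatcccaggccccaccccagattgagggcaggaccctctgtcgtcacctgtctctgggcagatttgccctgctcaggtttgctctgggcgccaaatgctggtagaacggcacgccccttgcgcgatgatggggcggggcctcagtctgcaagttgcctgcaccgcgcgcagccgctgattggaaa
Psmb5, chr14:54617996-54618245, minus strand: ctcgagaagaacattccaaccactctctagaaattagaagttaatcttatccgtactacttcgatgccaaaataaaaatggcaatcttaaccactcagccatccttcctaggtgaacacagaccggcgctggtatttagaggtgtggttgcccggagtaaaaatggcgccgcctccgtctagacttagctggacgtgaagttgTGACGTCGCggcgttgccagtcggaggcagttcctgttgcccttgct
Psmb6, chr11:70525107-70525356, plus strand: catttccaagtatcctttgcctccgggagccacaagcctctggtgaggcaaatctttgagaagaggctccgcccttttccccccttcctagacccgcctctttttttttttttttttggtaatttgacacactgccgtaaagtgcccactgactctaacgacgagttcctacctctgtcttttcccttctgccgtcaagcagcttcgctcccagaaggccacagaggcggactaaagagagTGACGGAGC

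The Psmb8 window held a gamma-activated site match 97 bases before the start and the Psmb9 window held none of the 3 motifs. The Psmb5 and Psmb6 windows each held the antioxidant element core, 47 and 9 bases before the start. RefSeq windows, extended to 50 bases past the start, were at hand for 39 members, all 5 induced and 34 others. The gamma-activated pattern was in 1 of 5 and 2 of 34 windows beside 9.55% of all 27025 genes' windows, and the interferon-stimulated pattern in 1 of 5 (Psme1) and 4 of 34 beside 3.99%. The antioxidant core was in 0 of 5 and 6 of 34 (17.6%) beside 14.0%, the 6 being Psmb5, Psmb6, Psmc6, Psmd9, Psmd12 and Psme4. A match describes letters only and says nothing of binding.

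Psmb10, which replaces Psmb7, did not pass the test. It was measured at 8.16 and 9.63 RPKM in old GSH-low cells, 9.99 and 9.09 RPKM in old GSH-high cells, and 9.41 and 7.70 RPKM in young cells. All groups overlapped, and the log2 difference was 0.05 ± 0.12 for old GSH-low against young (SE, adjusted p = 0.754) and 0.15 ± 0.12 for old GSH-high against young (adjusted p = 0.386).

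The activator subunits did not pass the test either. Psme1 was measured at 29.0 and 30.7 RPKM in old GSH-low cells, 32.5 and 34.1 RPKM in old GSH-high cells, and 35.1 and 29.1 RPKM in young cells. The young libraries overlapped both old fractions, with log2 differences of -0.10 ± 0.10 for old GSH-low (SE, adjusted p = 0.482) and 0.06 ± 0.10 for old GSH-high (adjusted p = 0.711). Psme2 was measured at 41.4 and 43.2 RPKM in old GSH-low cells, 45.0 and 45.0 RPKM in old GSH-high cells, and 58.3 and 46.9 RPKM in young cells. Its old libraries lay below both young ones, opposite in direction to Psmb8 and Psmb9, with a log2 difference of -0.30 ± 0.11 for old GSH-low (SE, adjusted p = 0.0571) and -0.21 ± 0.11 for old GSH-high (adjusted p = 0.170). Without young replicate 2, Psme2 passed the test in both comparisons with an adjusted p of 0.00370 for old GSH-low and 0.0103 for old GSH-high. Psme2b, a near copy of Psme2 with its own line, had 2.70 to 4.11 RPKM, and how reads were split where their sequences are shared is not known.

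**Figure D1:**
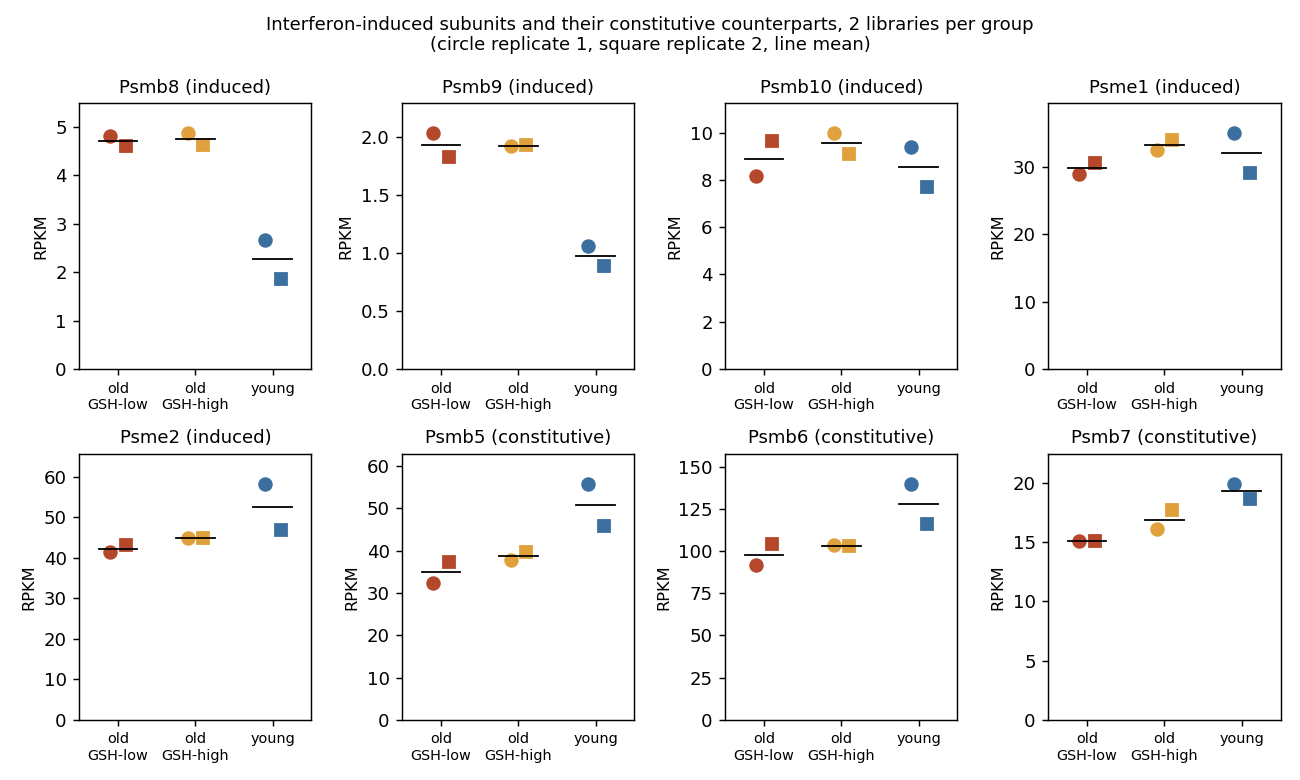
RPKM in each library for the 5 interferon-induced members and the constitutive subunits Psmb5, Psmb6 and Psmb7, with old GSH-low, old GSH-high and young from left to right, a circle for replicate 1, a square for replicate 2 and a line at the mean. Psmb8 and Psmb9 stand higher in all 4 old libraries than in both young libraries, Psmb10 and Psme1 overlap, and Psme2, Psmb5, Psmb6 and Psmb7 stand lower in the old libraries.

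The constitutive counterparts of the induced subunits differed from young cells in the other direction. Psmb5, the chymotrypsin-like subunit, was measured at 32.4 and 37.4 RPKM in old GSH-low cells, 37.9 and 39.7 RPKM in old GSH-high cells, and 55.8 and 45.9 RPKM in young cells. It fell in old GSH-low cells (log2 difference -0.53 ± 0.11, adjusted p = 0.00713) and in old GSH-high cells (-0.38 ± 0.11, adjusted p = 0.0368). Psmb6, the caspase-like subunit, was measured at 91.4 and 104 RPKM in old GSH-low cells, 103 and 103 RPKM in old GSH-high cells, and 140 and 116 RPKM in young cells. It fell in old GSH-low cells (-0.38 ± 0.11, adjusted p = 0.0256), and the value for old GSH-high cells was -0.30 (adjusted p = 0.0686). Psmb7, the trypsin-like subunit, was measured at 15.1 and 15.1 RPKM in old GSH-low cells, 16.1 and 17.7 RPKM in old GSH-high cells, and 19.9 and 18.7 RPKM in young cells. It fell in old GSH-low cells (-0.33 ± 0.09, adjusted p = 0.0168), with -0.18 in old GSH-high cells (adjusted p = 0.144). Old libraries of both fractions lay below the young ones for all 3 genes.

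The ratio of each induced subunit to the one it replaces does not depend on how a library is scaled. Psmb8 was 14.8% and 12.3% of Psmb5 (RPKM over RPKM) in old GSH-low cells, 12.9% and 11.7% in old GSH-high cells, and 4.77% and 4.06% in young cells. The geometric mean of the share was 3.07 times as high in old GSH-low and 2.78 times as high in old GSH-high cells as in young cells. Psmb9 was 2.23% and 1.75% of Psmb6 in old GSH-low cells, 1.86% and 1.88% in old GSH-high cells, and 0.762% and 0.769% in young cells, a geometric mean 2.58 and 2.44 times that of young cells. Psmb10 was 54.0% and 63.7% of Psmb7 in old GSH-low cells, 62.2% and 51.4% in old GSH-high cells, and 47.2% and 41.2% in young cells, a geometric mean 1.33 and 1.28 times that of young cells. For all 3 pairs the 4 old libraries lay above the 2 young ones, and the 2 old fractions overlapped. These ratios are given as a description with no test, and even in old cells the constitutive transcript was the more abundant of each pair per length of exon. The percentages depend on the annotated exon lengths, such as 3381 bases for Psmb8 and 899 for Psmb5. Their ratios between groups do not.

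**Figure D2:**
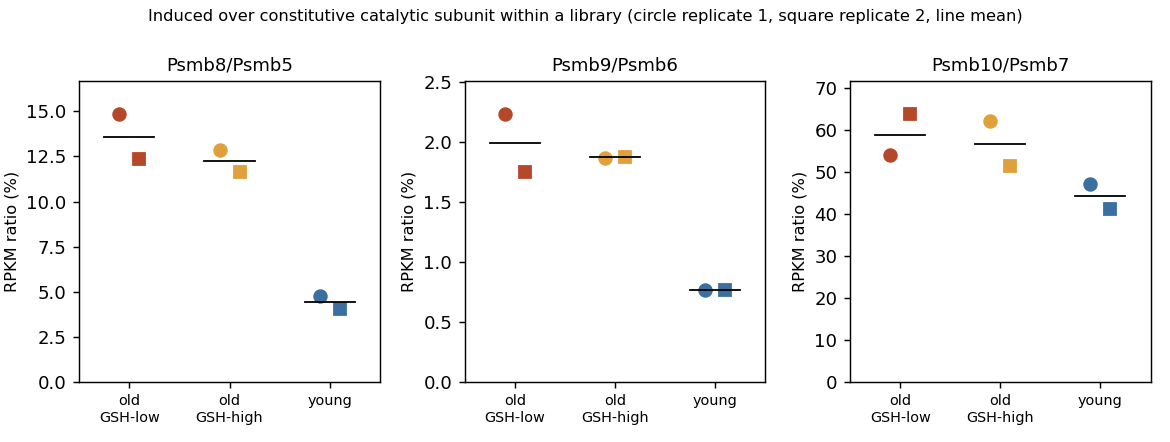
Percent of the constitutive subunit's RPKM reached by its induced counterpart in each library, for Psmb8 over Psmb5, Psmb9 over Psmb6 and Psmb10 over Psmb7, with a circle for replicate 1, a square for replicate 2 and a line at each group's mean. All old libraries stand above the young ones in each panel, from 11.7% to 14.8% against 4.06% to 4.77% for Psmb8 over Psmb5.

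Most class I presentation genes that passed the test rose, as Psmb8 and Psmb9 did. Of 12 genes of the MHC class I pathway, 6 rose (B2m, H2-D1, Nlrc5, Tap1, Tap2 and Tapbp), 2 fell (Calr and Pdia3, chaperones of the endoplasmic reticulum) and 4 did not pass in each old fraction against young cells, beside 18.1% of all genes that rose and 18.7% that fell for old GSH-low, and 15.1% and 13.7% for old GSH-high. Between the old fractions 0 of 12 passed by limma or limma-voom, and 0 had an unadjusted p under 0.05. The median log2 difference was 0.32 for old GSH-low cells and 0.30 for old GSH-high cells, beside -0.02 and -0.0037 over all genes. Tap1, a subunit of the transporter that carries proteasome products to class I molecules, was measured at 13.5 and 12.5 RPKM in old GSH-low cells, 12.8 and 11.0 RPKM in old GSH-high cells, and 5.87 and 6.84 RPKM in young cells. Its log2 difference was 0.93 ± 0.11 in old GSH-low cells (adjusted p = 0.000271) and 0.81 ± 0.11 in old GSH-high cells (adjusted p = 0.000769). Nlrc5, the transactivator of class I genes, was measured at 3.08 and 2.62 RPKM in old GSH-low cells, 3.53 and 3.20 RPKM in old GSH-high cells, and 0.837 and 1.10 RPKM in young cells, with log2 differences of 0.97 ± 0.11 (adjusted p = 0.000278) and 1.15 ± 0.11 (adjusted p = 0.000151).

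Of 24 genes of interferon signalling and response, 16 rose and 1 fell (Ifngr2) in old GSH-low cells, and 16 rose and 2 fell (Cxcl10 and Ifngr2) in old GSH-high cells, against young cells. Over all genes tested, 18.1% rose and 18.7% fell in old GSH-low cells, and 15.1% rose and 13.7% fell in old GSH-high cells. The median log2 difference was 0.53 for old GSH-low cells and 0.68 for old GSH-high cells. Ifit3, an interferon-stimulated antiviral gene, was measured at 12.7 and 14.4 RPKM in old GSH-low cells, 6.74 and 7.37 RPKM in old GSH-high cells, and 1.47 and 1.57 RPKM in young cells.

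Irf1, a factor known to drive Psmb8 and Psmb9 in mouse cells, was measured at 26.9 and 24.5 RPKM in old GSH-low cells, 16.9 and 16.0 RPKM in old GSH-high cells, and 20.5 and 19.2 RPKM in young cells. Its level in old GSH-low cells exceeded that in old GSH-high cells (0.61 ± 0.09, adjusted p = 0.00373), and Cxcl10, an interferon-induced chemokine, likewise (1.22 ± 0.12, adjusted p = 0.000427). For Psmb8 and Psmb9 the same comparison of the old fractions gave the -0.011 and 0.0013 named above. Against young cells, Irf1 rose in old GSH-low cells (0.36, adjusted p = 0.0130, limma). It did not pass in old GSH-high cells (-0.26, adjusted p = 0.0567). The part of Irf1 in the levels of Psmb8 and Psmb9 was not tested. In all, 6 of the 24 rose and 1 fell (Gbp3) between old GSH-low and old GSH-high cells, where 5.38% of all genes passed in either direction. The lymphocyte, antigen-presenting, macrophage, tendon and fibro-adipogenic marker sums given above also stood higher in old than in young libraries. The macrophage sum was 31.7 to 34.7 RPKM in old GSH-low cells, 31.2 to 42.2 RPKM in old GSH-high cells and 5.57 to 8.27 RPKM in young cells. The lymphocyte sum was 23.7 to 26.4 RPKM in old GSH-low cells, 2.39 to 3.75 RPKM in old GSH-high cells and 1.24 to 1.25 RPKM in young cells. The part of these cells in the levels of Psmb8, Psmb9 and the interferon genes was not tested.

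Most of the other 41 members were lower in old cells. Against young cells, 28 of 41 (68.3%) fell in old GSH-low cells, beside 18.7% of all genes tested, and 9 of 41 (22.0%) fell in old GSH-high cells, beside 13.7%. None of the 41 rose in either comparison by limma, none had a positive difference at an unadjusted p under 0.05, and limma-voom on the recovered reads also called 0. The differences were small: the median log2 difference was -0.33 in old GSH-low cells, with a range of -0.73 to 0.10, and -0.19 in old GSH-high cells, with a range of -0.69 to 0.08. The median over all genes was -0.02 and -0.0037, as given above. No member fell by as much as 2-fold. Both old GSH-low libraries lay below both young libraries for 39 of 41 members (36.5% of all genes), and both old GSH-high libraries did so for 29 of 41 (33.7% of all genes). All 9 that fell in old GSH-high cells also fell in old GSH-low cells: Psma4, Psmb1, Psmb5, Psmc3, Psmc4, Psmd8, Psmd9, Psmg3 and Psmg4.

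The reads of the 41 genes together made up 0.497% and 0.521% of reads assigned to the deposited genes in old GSH-low cells, 0.564% and 0.574% in old GSH-high cells, and 0.654% and 0.590% in young cells, with no overlap between the groups. Young replicate 1 was higher than young replicate 2 for 36 of 41 members, by a median ratio of 1.16, while 54.1% of all genes were higher in it, by a median ratio of 1.02. The counts depend on single libraries. Left with 1 library in a group, a fit takes that library to vary like those of the other groups. The count of 28 became 6 without old GSH-low replicate 1, 17 without old GSH-low replicate 2, 19 without young replicate 1 and 35 without young replicate 2. The count of 9 became 1 when the old GSH-high group lost replicate 1 and 2 when it lost replicate 2, and it became 2 when the young group lost replicate 1 and 24 when it lost replicate 2. The genes that passed in old GSH-low cells whichever library was left out were Psma4, Psmc3, Psmd6, Psmd8 and Psmd13, and in old GSH-high cells Psmd8.

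**Figure D3:**
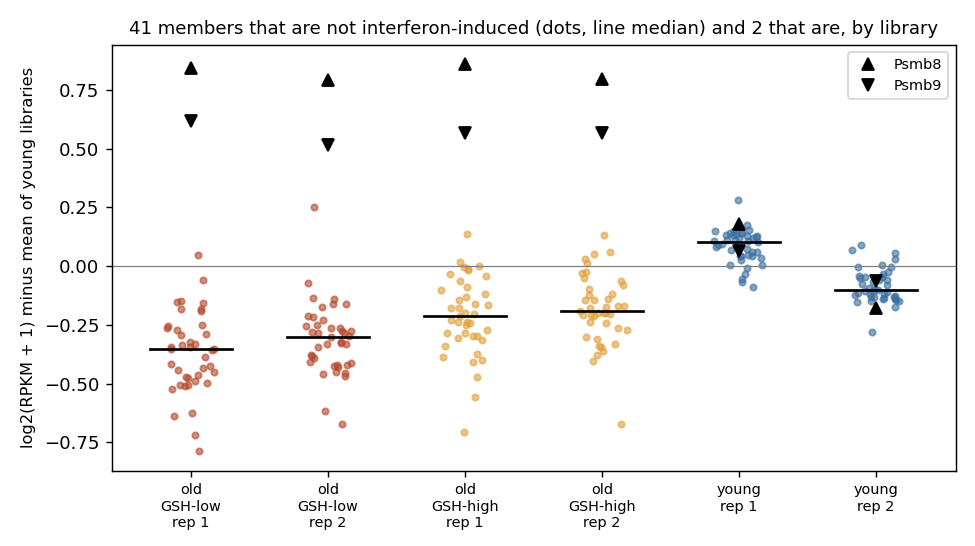
Log2(RPKM + 1) minus the mean of the young libraries in each library, with a dot for each of the 41 members that are not interferon-induced, a line at their median and triangles for Psmb8 and Psmb9. The median lies at -0.35 and -0.30 in old GSH-low cells, -0.21 and -0.19 in old GSH-high cells, and 0.10 and -0.10 in young cells, while Psmb8 and Psmb9 stand above the dots of all 4 old libraries.

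In the core, 5 of 7 alpha subunits and 6 of 7 constitutive beta subunits fell in old GSH-low cells, and 1 of 7 and 2 of 7 fell in old GSH-high cells, against young cells. Of all genes tested, 18.7% fell in old GSH-low cells and 13.7% in old GSH-high cells. Alpha subunits form the outer rings and the gate. Psma4 had the largest fall among them, measured at 27.6 and 29.7 RPKM in old GSH-low cells, 31.0 and 36.1 RPKM in old GSH-high cells, and 49.1 and 43.1 RPKM in young cells. It was 37.9% lower in old GSH-low cells than in young cells, with a log2 difference of -0.67 ± 0.10 (adjusted p = 0.00149), and the difference was -0.45 ± 0.10 in old GSH-high cells (adjusted p = 0.0131). Neither old fraction overlapped the young libraries. Psma6 averaged 88.7 RPKM in old GSH-low cells, 104 RPKM in old GSH-high cells and 123 RPKM in young cells, and its fall in old GSH-low cells was -0.46 (adjusted p = 0.00705). Psma1, Psma2 and Psma5 fell there by 0.40, 0.43 and 0.37 on the log2 scale. Psma2 was measured at 31.7 and 32.2 RPKM in old GSH-low cells, 34.7 and 36.0 RPKM in old GSH-high cells, and 48.0 and 39.2 RPKM in young cells, and did not pass in old GSH-high cells (-0.29, adjusted p = 0.0665). Psma3 was measured at 75.3 and 75.5 RPKM in old GSH-low cells, 82.2 and 81.4 RPKM in old GSH-high cells, and 102 and 83.1 RPKM in young cells. Psma3 and Psma7, whose old libraries also lay below the young ones, did not pass in old GSH-low cells, with values of -0.29 (adjusted p = 0.0607) and -0.28 (adjusted p = 0.0653).

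Among beta subunits, Psmb1, a structural subunit with no cutting site, was measured at 21.6 and 24.4 RPKM in old GSH-low cells, 25.9 and 25.6 RPKM in old GSH-high cells, and 38.7 and 30.2 RPKM in young cells. The young libraries differed by more than the old ones, yet both lay above all old ones, and the log2 difference was -0.55 ± 0.12 in old GSH-low cells (adjusted p = 0.00765) and -0.39 ± 0.12 in old GSH-high cells (adjusted p = 0.0388). Without young replicate 1, the value for old GSH-high cells was -0.22 and did not pass. The structural subunits Psmb3 and Psmb4 fell in old GSH-low cells by 0.43 (adjusted p = 0.0139) and 0.42 (adjusted p = 0.0160) on the log2 scale. Psmb2, the most abundant member per length in young cells, was measured at 103 and 119 RPKM in old GSH-low cells, 122 and 127 RPKM in old GSH-high cells, and 155 and 126 RPKM in young cells, with the old GSH-high and young libraries overlapping. It averaged 111 ± 11.2 RPKM in old GSH-low cells, 124 ± 3.83 RPKM in old GSH-high cells and 141 ± 20.4 RPKM in young cells (SD, n = 2 each), and did not pass (-0.33, adjusted p = 0.0531).

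In the cap, 10 of 11 non-ATPase subunits fell in old GSH-low cells (18.7% of all genes) and 1 of 11, Psmd8, in old GSH-high cells (13.7% of all genes). Psmd8, a small subunit of the lid whose joining completes lid assembly in yeast, had the largest fall of all 46 members. It was measured at 69.6 and 75.6 RPKM in old GSH-low cells, 73.7 and 75.6 RPKM in old GSH-high cells, and 132 and 111 RPKM in young cells. The old fractions overlapped and lay below both young libraries, with a mean 40.2% lower in old GSH-low than in young cells. The log2 difference was -0.73 ± 0.10 in old GSH-low cells (adjusted p = 0.000796) and -0.69 ± 0.10 in old GSH-high cells (adjusted p = 0.00143).

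Psmd14, the enzyme that clips ubiquitin chains off substrates, averaged 26.5 RPKM in old GSH-low cells, 31.7 RPKM in old GSH-high cells and 37.2 RPKM in young cells. It fell in old GSH-low cells by 0.47 on the log2 scale (adjusted p = 0.00647), as did the lid subunits Psmd6 by 0.46 (adjusted p = 0.00369) and Psmd13 by 0.41 (adjusted p = 0.00533). Psmd6 was measured at 34.0 and 36.5 RPKM in old GSH-low cells, 39.3 and 42.4 RPKM in old GSH-high cells, and 50.4 and 47.3 RPKM in young cells, the 3 groups following each other without overlap, and its value in old GSH-high cells was -0.25 (adjusted p = 0.0565). The lid subunits Psmd3, Psmd7, Psmd11 and Psmd12 fell by 0.28 to 0.33. Psmd1 and Psmd2, the large scaffold subunits of the base, fell by 0.26 (adjusted p = 0.0363) and 0.35 (adjusted p = 0.0114). Psmd4, a ubiquitin receptor, was the remaining subunit of this group and did not pass, with a value of -0.20 (adjusted p = 0.142).

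Of the 6 ATPases of the base, which unfold the substrate and open the gate, Psmc2, Psmc3 and Psmc4 fell in old GSH-low cells (18.7% of all genes), and Psmc3 and Psmc4 also fell in old GSH-high cells (13.7% of all genes). Psmc3 was measured at 47.1 and 48.7 RPKM in old GSH-low cells, 55.1 and 52.1 RPKM in old GSH-high cells, and 69.3 and 65.3 RPKM in young cells. The 3 groups followed each other without overlap, with log2 differences of -0.48 ± 0.08 in old GSH-low cells (adjusted p = 0.00218) and -0.32 ± 0.08 in old GSH-high cells (adjusted p = 0.0183). Psmc4 averaged 59.0 RPKM in old GSH-low cells, 64.0 RPKM in old GSH-high cells and 80.8 RPKM in young cells. Psmc1, Psmc5 and Psmc6 did not pass, with values of -0.16 to -0.23 in old GSH-low cells and -0.02 to 0.03 in old GSH-high cells. Subunits present in equal number in the ATPase ring were thus not all called, and whether their differences are unequal was not tested.

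Assembly chaperones hold partly built particles together and leave once these are complete. Of the cap chaperones, Psmd9 averaged 5.28 RPKM in old GSH-low cells, 5.27 RPKM in old GSH-high cells and 6.75 RPKM in young cells, and fell in both old fractions (adjusted p = 0.0254 for old GSH-low, 0.0305 for old GSH-high). Psmd10, also known as gankyrin, fell in old GSH-low cells by 0.39 (adjusted p = 0.0128), and Psmd5 did not pass. Of the core chaperones, Psmg4 was measured at 26.5 and 29.6 RPKM in old GSH-low cells, 27.0 and 29.8 RPKM in old GSH-high cells, and 41.5 and 34.5 RPKM in young cells. The old fractions overlapped below both young libraries, with log2 differences of -0.42 ± 0.11 (adjusted p = 0.0172) and -0.40 ± 0.11 (adjusted p = 0.0254). Its partner Psmg3 averaged 2.23 RPKM in old GSH-low cells, 2.21 RPKM in old GSH-high cells and 3.08 RPKM in young cells and fell in both (-0.34, adjusted p = 0.0256, and -0.35, adjusted p = 0.0283). The other pair of core chaperones, Psmg1 and Psmg2, did not pass. Psmg1 had the largest standard error of the 46 members (0.18 on the log2 scale), with 6.36 and 8.15 RPKM in old GSH-low cells, 4.93 and 5.71 RPKM in old GSH-high cells, and 8.31 and 5.32 RPKM in young cells.

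For the activators and the inhibitor outside the interferon-induced group no difference passed the test. Neither Psme3, the nuclear activator, nor Psme4, the activator linked to histone degradation, nor the inhibitor Psmf1 passed in any comparison, and none of these 3 had an unadjusted p under 0.05 against young cells. Psme4 was measured at 12.9 and 11.8 RPKM in old GSH-low cells, 12.1 and 13.7 RPKM in old GSH-high cells, and 12.1 and 12.7 RPKM in young cells, which overlap throughout. Median log2 differences by role were -0.40 for alpha subunits, -0.42 for constitutive beta subunits, -0.28 for ATPases, -0.33 for non-ATPase cap subunits, -0.30 for cap chaperones, -0.27 for core chaperones and -0.16 for these 3 genes, all for old GSH-low against young. For old GSH-high against young they were -0.19, -0.22, -0.03, -0.19, -0.15, -0.32 and 0.05 in the same order.

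**Figure D4:**
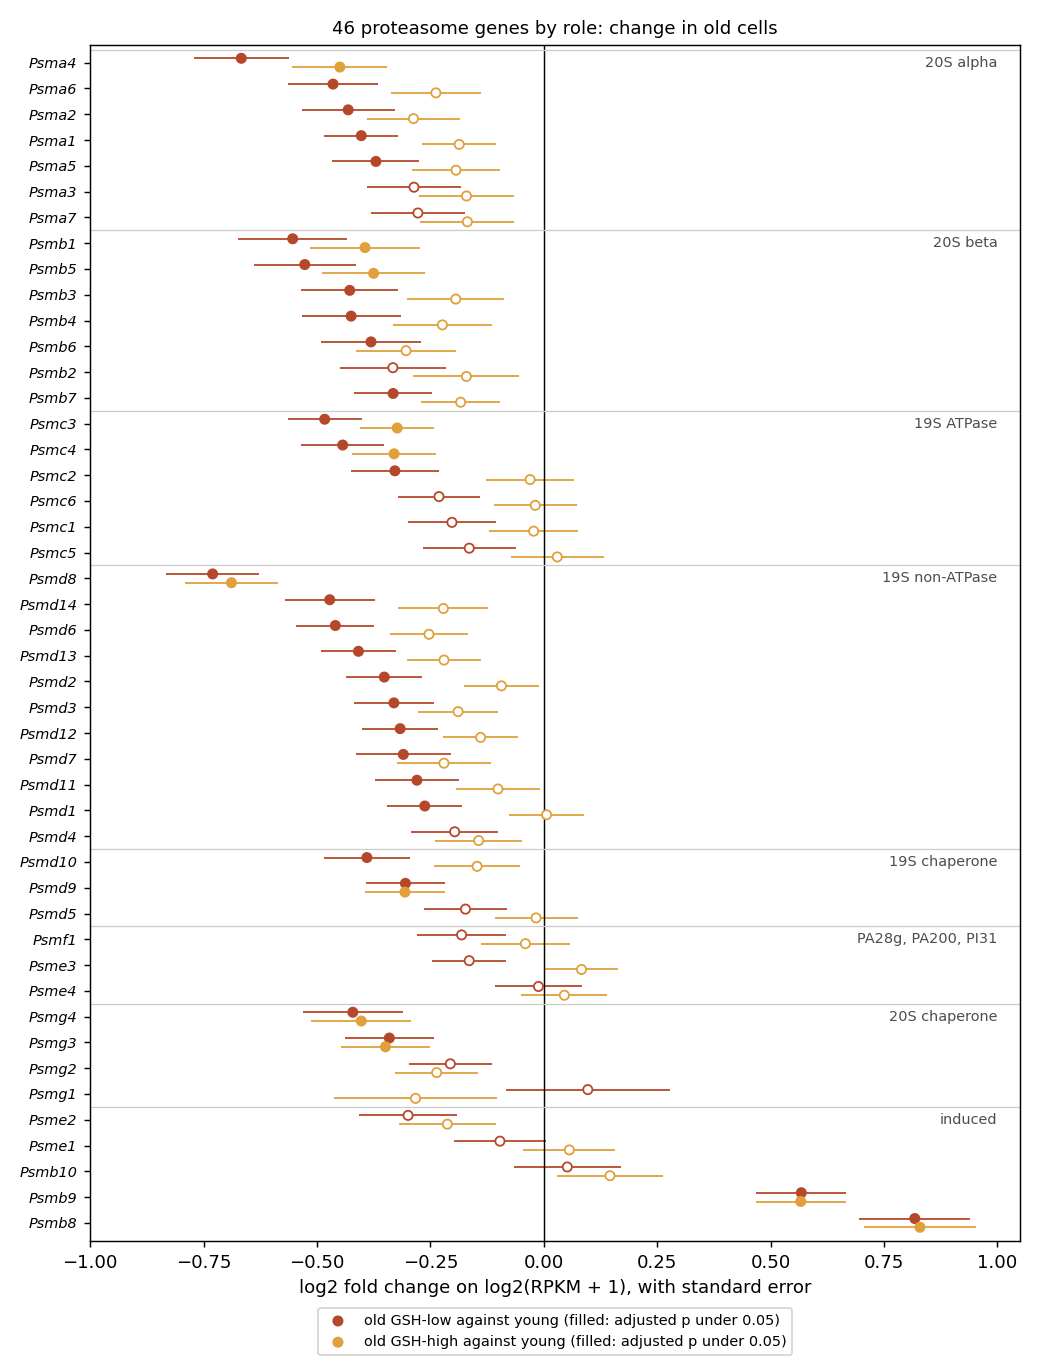
Difference in log2(RPKM + 1) with its standard error for each of the 46 members, arranged by role in the core (20S), the cap (19S), the other activators and inhibitor, the chaperones and the induced group, for old GSH-low against young and old GSH-high against young. Points are filled where the adjusted p is under 0.05: Psmb8 and Psmb9 lie above 0 in both comparisons and every other filled point lies below it.

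Between the old fractions, no member passed the test, beside 5.38% of all genes tested (limma). For the 41, an unadjusted p under 0.05 was reached by 11, all lower in old GSH-low cells, beside 19.2% of all genes in either direction. For the induced members it was reached by 0, and limma-voom called 0 of 46. The values still leaned to 1 side. For 32 of 41 members both old GSH-low libraries lay below both old GSH-high libraries, beside 29.8% of all genes, and the median log2 difference was -0.16 beside -0.01 over all genes. For 22 of 41 (53.7%) the 3 groups were ordered without overlap, lowest in old GSH-low cells and highest in young cells, beside 9.13% of all genes.

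The smallest p belonged to Psmd1, measured at 31.6 and 31.5 RPKM in old GSH-low cells and 38.1 and 38.4 RPKM in old GSH-high cells, with 36.2 and 39.9 RPKM in young cells (-0.27 ± 0.08, adjusted p = 0.116). Psmd2 was measured at 76.2 and 73.0 RPKM in old GSH-low cells and 91.4 and 87.4 RPKM in old GSH-high cells, with 91.8 and 99.2 RPKM in young cells (-0.26 ± 0.08, adjusted p = 0.133). Psmc2 was measured at 21.7 and 22.5 RPKM in old GSH-low cells and 27.3 and 27.5 RPKM in old GSH-high cells, with 30.5 and 25.7 RPKM in young cells (-0.30 ± 0.10, adjusted p = 0.133). For these 3 genes the old GSH-low libraries lay below all others while the old GSH-high libraries lay near the young ones. Psmc2 and Psmd1 passed when either young library was left out of the fit. The muscle stem cell markers shared this order in part: their sum was 3125 and 3003 RPKM in old GSH-low cells, 3655 and 3476 RPKM in old GSH-high cells, and 4018 and 3784 RPKM in young cells. Between the old fractions, 1 of these 10 markers rose in old GSH-low cells, 0 fell and 9 did not pass, with a median log2 difference of -0.16. Of all genes, 5.38% passed there in either direction. In old GSH-low against young cells 5 of 10 fell, beside 18.7% of all genes, and Pax7 rose. The part of the muscle stem cell, tendon and lymphocyte markers in the proteasome levels was not tested.

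Outside the 46, 27 genes that feed or build the proteasome were followed. In old GSH-low against young cells 1 rose, 10 fell and 16 did not pass, in old GSH-high against young cells 2 rose, 8 fell and 17 did not pass, and between the old fractions 0 passed by limma or limma-voom, with 3 at an unadjusted p under 0.05 (19.2% of all genes). Of all genes, 18.7% fell and 18.1% rose in the first of these comparisons, and 13.7% fell and 15.1% rose in the second. The genes that rose were Ecpas, a proteasome-binding scaffold, in both and Ubqln4, a ubiquitin shuttle, in old GSH-high cells. The median log2 difference was -0.21 for old GSH-low cells and -0.10 for old GSH-high cells. Pomp, the maturation factor that core assembly consumes, averaged 13.4 ± 0.876 RPKM in old GSH-low cells, 15.2 ± 0.314 RPKM in old GSH-high cells and 21.0 ± 3.36 RPKM in young cells (SD, n = 2 each), and fell in both old fractions (-0.60, adjusted p = 0.00378, and -0.43, adjusted p = 0.0216). Zfand2a, which aids the proteasome under proteotoxic stress, averaged 14.5 RPKM in old GSH-low cells, 16.5 RPKM in old GSH-high cells and 21.7 RPKM in young cells (-0.55, adjusted p = 0.00227, and -0.38, adjusted p = 0.0161). The polyubiquitin gene Ubb averaged 940 RPKM in old GSH-low cells, 871 RPKM in old GSH-high cells and 1362 RPKM in young cells (-0.53, adjusted p = 0.00949, and -0.64, adjusted p = 0.00521). Sem1, a small cap subunit whose symbol the selection did not cover, averaged 23.7 RPKM in old GSH-low cells, 23.1 RPKM in old GSH-high cells and 33.8 RPKM in young cells (-0.50, adjusted p = 0.0124, and -0.52, adjusted p = 0.0123).

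Nfe2l1, the transcription factor that raises proteasome genes when the proteasome is inhibited, was measured at 45.6 and 42.8 RPKM in old GSH-low cells, 48.2 and 45.9 RPKM in old GSH-high cells, and 40.7 and 52.3 RPKM in young cells. Its transcript did not pass in either age comparison (-0.06, adjusted p = 0.704, and 0.03, adjusted p = 0.888), and the young libraries spanned the old ones. Its activity is controlled largely after translation, which these data do not measure.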

How the data were processed

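The deposited values are RPKM per gene, in 1 table for 6 libraries. Per the labels, RNA was reverse-transcribed from oligo(dT), sheared after cDNA synthesis and sequenced as single-end 150 bp reads on a NextSeq instrument. Per the submitters' processing notes, the tools were Trim Galore, STAR, featureCounts, Subread and edgeR, with build mm10 (GRCm38); versions and strand setting are not given in the sources used here. The deposited RPKM values were whole reads for 100% of genes (within 0.02 reads), which recovered depth, and they carry a scaling between libraries beyond depth. An exact 0 had been replaced by a small value in 144 genes, none of them members.

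From these, limma 3.58.1 (R 4.3.3) was fitted to log2(RPKM + 1) with a trend, a mean per group and all 6 libraries (3 residual degrees of freedom), on the 10609 genes that reached 1 RPKM in 2 libraries. P-values were Benjamini-Hochberg adjusted over those genes, with a threshold of 0.05. They measure the spread between libraries of 1 animal (young) or 2 pooled animals (old). Alternatives were scaling by library size only, scaling by median-of-ratios size factors, no filter, RPKM of at least 5, a pseudocount of 0.1, limma-voom on recovered reads, the 4 libraries of a comparison alone, a replicate block, each library left out, and, added after seeing the data, removal of a gene length trend.

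Members were chosen by symbol. They and all gene lists were chosen with earlier results of these data known. Values in every library are given for the induced members, Psmb5 to Psmb7, the 5 largest called differences per comparison and the uncalled members with the smallest p; the rest by mean and difference or by range. Of other lists, the called genes with the smallest p and Nfe2l1, Irf1, Tap1 and Nlrc5 are named; 1 further gene of this rule is not reported here. Psme3, Psme4, Psmg1, the genes listed by symbol in counts of other lists and Ptprc and Ms4a1 were singled out after their values were seen. Positions come from GENCODE M21 and promoters from RefSeq (GRCm38.p6).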

Additional observations from a re-analysis of the deposited data

Results flagged for a closer look

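Psme3, the nuclear proteasome activator, lay on different sides of the young libraries in the old fractions. It was measured at 86.7 and 85.5 RPKM in old GSH-low cells, 106 and 98.6 RPKM in old GSH-high cells, and 96.2 and 97.0 RPKM in young cells, so that both old GSH-low libraries were below and both old GSH-high libraries above the young ones. The difference between old GSH-low and old GSH-high cells was -0.25 ± 0.08 on the log2 scale (SE, adjusted p = 0.138, limma) and did not pass the test.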

How the results depend on the processing

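With 2 libraries a group, single libraries decide many calls. Leaving out each library in turn, the members other than the induced ones that fell numbered 6 to 35 for old GSH-low against young, 1 to 24 for old GSH-high against young and 0 to 2 for old GSH-low against old GSH-high. Their median log2 difference ran from -0.43 to -0.27 for old GSH-low against young, from -0.30 to -0.11 for old GSH-high against young and from -0.18 to -0.14 between the old fractions. Induced members that fell numbered 0 to 1 in both age comparisons (Psme2, without young replicate 2).

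Fitting only the 4 libraries of the comparison, 2 members (Psmc2 and Psmd1) fell in old GSH-low against old GSH-high cells, and removing a gene length trend, 1 (Psma6). With that trend removed, 17 of 41 fell in old GSH-high against young cells and 1 induced member (Psme2) in both age comparisons. A minimum of 5 RPKM removed Psmb8 and Psmb9, so 0 induced members rose. The log2 ratio of Psmb8 to Psmb5, computed with the added 1, differed from young by 1.34 in old GSH-low cells and 1.20 in old GSH-high cells, against 1.62 and 1.48 without it. That of Psmb9 to Psmb6 differed by 0.95 and 0.87, against 1.37 and 1.29.

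With a replicate block, 24 of 41 fell in old GSH-low cells and 5 of 41 in old GSH-high cells, each against young. Libraries sharing a number did not deviate together (correlation across genes 0.07 between the old fractions, -0.26 for old GSH-low with young, -0.14 for old GSH-high with young), so the numbers were not taken to pair the samples. Whether the old fractions share animals is not stated, and 2 libraries a group cannot settle it. Over the alternatives that left out no single library, the counts were 22 to 36 and 5 to 17.

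Uncalled differences near 0 changed sign with 1 library left out. Members checked were the induced ones, Psmb5 to Psmb7, called members and the uncalled ones with the smallest p in each comparison. Between the old fractions their differences ran from -0.20 to 0.013 for Psmb10, -0.17 to 0.017 for Psmb6, -0.042 to 0.019 for Psmb8 and -0.051 to 0.053 for Psmb9. The log2 ratios ran from -0.095 to 0.25 for Psmb9/Psmb6 and -0.084 to 0.19 for Psmb10/Psmb7. Members outside this check changed sign too. Examples are Psmd9 between the old fractions (-0.049 to 0.052) and Psmc5 for old GSH-high against young (-0.11 to 0.17). Another is Psmg1 for old GSH-low against young (-0.18 to 0.38). For old GSH-high against young, Psme1 ran from -0.074 to 0.19. For old GSH-low against young, Psme1 ran from -0.23 to 0.034 and Psmb10 from -0.078 to 0.18, and Psmb10 was -0.0063 with the length trend removed. The cause was not tested. The counts that follow cover the checked members only, so sign changes of other members are not among them. Of single-gene values under all alternatives, 810 kept direction and side of the threshold, 105 lost and 27 gained the call, and 10 reversed. Protein sequences were not compared.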
